A study of Mus musculus with 10 samples.

Results

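The transcripts of 10 scaffold genes of the presynaptic active zone, Pclo, Bsn, Rims1, Rims2, Erc1, Erc2, Unc13a, Ppfia2, Ppfia3 and Tspoap1, were examined in bulk RNA-seq of mouse cortex. They were chosen by name from what their proteins do, with earlier results of these data known. Each matched 1 gene identifier, and they are 10 of the 53700 identifiers with counts. All 10 mice were females aged 4 months that carried the 5XFAD transgenes, which are driven by the neuronal Thy1 promoter and give amyloid pathology. The 5 mice of 5XFAD;Neu cKO also carried Camk2a-Cre and floxed Idol, whose product IDOL marks lipoprotein receptors for degradation, and the other 5, labelled WT, were 5XFAD littermates. In the study WT stands for wild type at Idol, and whether these littermates carried Cre is not given in the sources used here. The Camk2a promoter is active mainly in excitatory neurons of the forebrain, so that glia, vessels and most interneurons of the cortex are outside its reach. The comparison asks whether deletion of neuronal Idol goes with a different level of these transcripts in cortex with amyloid pathology.

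The active zone is the patch of presynaptic membrane where vesicles dock and fuse. Its scaffold proteins hold vesicles and calcium channels close together and ready them for release when an action potential arrives. Piccolo and Bassoon are very large proteins that span the patch, RIM, ELKS and RIM-binding proteins link vesicles to calcium channels, MUNC13 primes vesicles for fusion, and liprin-α proteins recruit the others during assembly. Synapse loss is a hallmark of Alzheimer's disease, and dystrophic presynaptic endings surround amyloid plaques in 5XFAD mice.

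The libraries held 4320504 to 7466192 reads on genes in 5XFAD and 5148499 to 7246659 in 5XFAD;Neu cKO. They were made with a 3′ kit, in which a transcript gives reads only near its poly(A) tail, so that the long transcripts of these genes do not gain counts from their length. Each of the 10 genes was counted between 277 and 3876 times in every library. Mylip, the mouse gene of IDOL, was counted 50 to 148 times in 5XFAD;Neu cKO and 45 to 108 times in 5XFAD. At 14.8 ± 4.90 against 11.2 ± 2.27 CPM (counts scaled to library size with TMM factors, SD, n = 5) it was not lower in the deleted group (log2 fold change 0.39, standard error 0.25, edgeR's adjusted p = 0.777). Counts summed over a gene do not show whether the deleted part was read, so they do not check the labels, and a group name below stands for the libraries labelled with it. The labels give no cultures, litters or batches, and each library is taken as 1 mouse. The p-values measure the spread between these libraries, which may in part be technical.

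By edgeR's quasi-likelihood test at an adjusted p under 0.05, 0 of the 10 scaffold genes differed between the groups, where 0.218% of all 19268 genes tested did. There were 8 genes with lower estimates and 2 with higher ones in 5XFAD;Neu cKO, and the median log2 fold change of the 10 was -0.082, beside -0.00056 over all genes, of which 50.1% were lower. At an unadjusted p under 0.05 in either direction there were 2, Pclo and Rims1, where 7.95% of all genes were. Both were lower, and 4.01% of all genes were lower at that level. DESeq2, the tool the authors used, called 1 of the 10, Pclo, where 1.25% of the genes it gave an adjusted p were called. In 1 of the 10, again Pclo, the groups did not overlap, which held for 1.30% of all genes. The Pclo value was known from earlier results of these data when the genes were chosen, so it is not independent evidence. In bulk tissue, fewer cells of a type and less RNA per cell cannot be told apart.

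**Figure D1:**
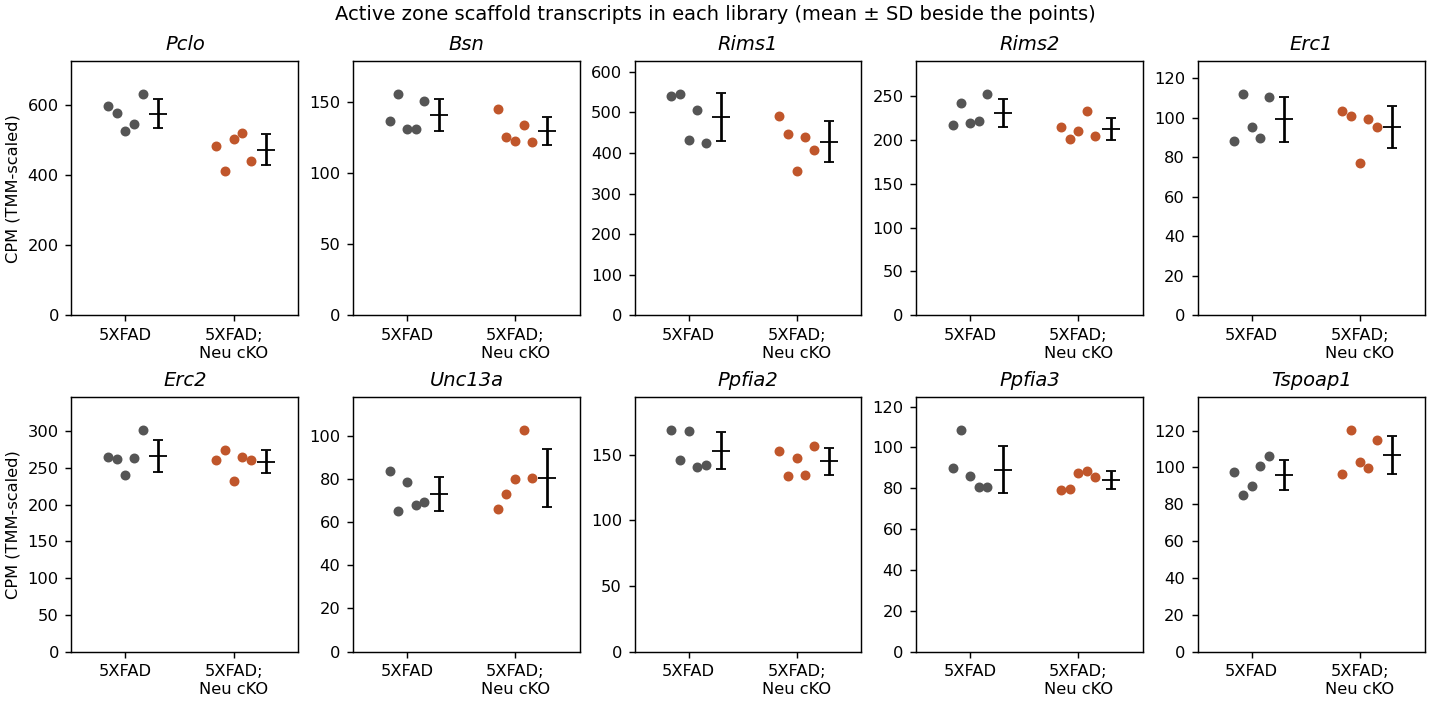
Each panel plots 1 scaffold gene, with its level in CPM (TMM-scaled, from 0) on the vertical axis and a point for each of the 5 libraries of 5XFAD and of 5XFAD;Neu cKO, and the bar beside the points gives mean ± SD. The points of Pclo separate, with 413 to 521 CPM in 5XFAD;Neu cKO and 527 to 630 CPM in 5XFAD, and those of the other 9 genes overlap.

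Pclo and Bsn encode Piccolo and Bassoon, the largest scaffolds of the active zone, which tether vesicles and share much of their domain order. Pclo (ENSMUSG00000061601) lies on the plus strand of GRCm39 chromosome 5 from 14564932 to 14913473, and Bsn (ENSMUSG00000032589) on the minus strand of chromosome 9 from 107973221 to 108067629. The bases just before the start of each gene are shown for Pclo, the only gene that separated the groups, and for Bsn, its nearest relative in function. A difference between Pclo and Bsn in their response was not shown, as given below. They are the 250 bases that precede the RefSeq start, in GRCm38.p6 and 5′ to 3′ on the gene's strand, from chr5:14514668-14514917 (plus) for Pclo and chr9:108190384-108190633 (minus) for Bsn. Capitals mark matches, on either strand, to a GC box (GGGCGG) or to the core of the NRF1 motif (GCGCATGC).
Pclo: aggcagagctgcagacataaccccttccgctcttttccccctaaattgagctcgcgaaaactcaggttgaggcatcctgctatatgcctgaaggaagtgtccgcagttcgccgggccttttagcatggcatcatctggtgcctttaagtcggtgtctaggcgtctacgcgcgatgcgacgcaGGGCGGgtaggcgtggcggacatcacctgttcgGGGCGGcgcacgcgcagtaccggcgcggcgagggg
Bsn: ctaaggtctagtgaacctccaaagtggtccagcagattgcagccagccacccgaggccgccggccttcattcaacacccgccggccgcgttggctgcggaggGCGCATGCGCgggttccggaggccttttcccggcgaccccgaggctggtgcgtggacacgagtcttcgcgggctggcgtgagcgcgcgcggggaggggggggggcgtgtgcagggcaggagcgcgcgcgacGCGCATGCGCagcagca

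The Pclo window holds 2 GC boxes and no NRF1 core, and the Bsn window holds the NRF1 core at 2 places, each a pair of overlapping matches on both strands, and no GC box. Both are rich in CpG, with 25 in Pclo and 32 in Bsn against a median of 6 over the 32851 promoter windows of the same length in the table. Promoters were found there for 8 of the 10 genes. A GC box stands in 6 of these 8 and in 32.7% of all windows, the NRF1 core in 1 and in 2.26%, and neither a cyclic AMP response element (TGACGTCA, 1.55% of all) nor a TATA box (TATAAA, 12.4%) in any of the 8. Each of the 8 windows holds more CpG than at least 78.3% of all windows, and the shares over all windows were not matched for base content. These matches are descriptions of letters and were not tied to the counts.

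Pclo had the highest mean CPM of the 10 genes. In 5XFAD, replicates 1 to 5 held 3074, 2463, 3876, 2926 and 2808 of its reads, and in 5XFAD;Neu cKO they held 2590, 2243, 3819, 3094 and 3068. Scaled for library size, the levels were 596, 578, 527, 545 and 630 CPM in 5XFAD and 484, 413, 501, 521 and 441 CPM in 5XFAD;Neu cKO. All 5 libraries of 5XFAD;Neu cKO were below all 5 of 5XFAD, though the highest of the former and the lowest of the latter were only 521 and 527 CPM. The means were 471.9 ± 44.4 CPM in 5XFAD;Neu cKO and 575.2 ± 41.0 CPM in 5XFAD (SD, n = 5), a fold of 0.821. On the log2 scale the fold change was -0.285 (standard error 0.077), and its 95% interval ran from -0.44 to -0.13. The adjusted p was 0.123 in edgeR, over 19268 genes, and 0.0139 in DESeq2, over the 5820 genes to which it gave one. An exact two-sided permutation test gave p = 0.00794, not adjusted over the 10 genes. This is the smallest p that 5 against 5 allow. Any gene whose groups do not overlap gets it, so it adds nothing to the separation already given. In p, Pclo stood at place 77 of the 19268 genes.

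The Pclo call changed with the settings. Fits that each left out 1 library gave log2 fold changes from -0.32 (without 5XFAD;Neu cKO replicate 4) to -0.24 (without 5XFAD;Neu cKO replicate 2), and 0 of these 10 fits passed the threshold, the adjusted p lying between 0.0790 and 0.370. When library totals were used without TMM, a scaling added after seeing the data, the groups overlapped, with 436 to 530 against 519 to 650 CPM, the difference in mean log2 CPM was -0.20 in place of -0.29, and the exact permutation p was 0.0556. The TMM factors themselves were 0.97 to 1.06 in 5XFAD;Neu cKO and 0.91 to 1.03 in 5XFAD. Mitochondrial transcripts took a median of 20.5% of counted reads in 5XFAD;Neu cKO and 23.5% in 5XFAD, and alignments that htseq-count set aside as not unique numbered a median of 3.05 and 3.61 per counted read, with overlapping ranges in both measures. Without the mitochondrial genes the Pclo log2 fold change was -0.29 (edgeR's adjusted p = 0.0969). The part of the other library measures in the Pclo difference was not tested. With the libraries scaled to the same summed count of 12 general neuron markers, the log2 fold change was -0.30 (edgeR's adjusted p = 0.112).

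**Figure D2:**
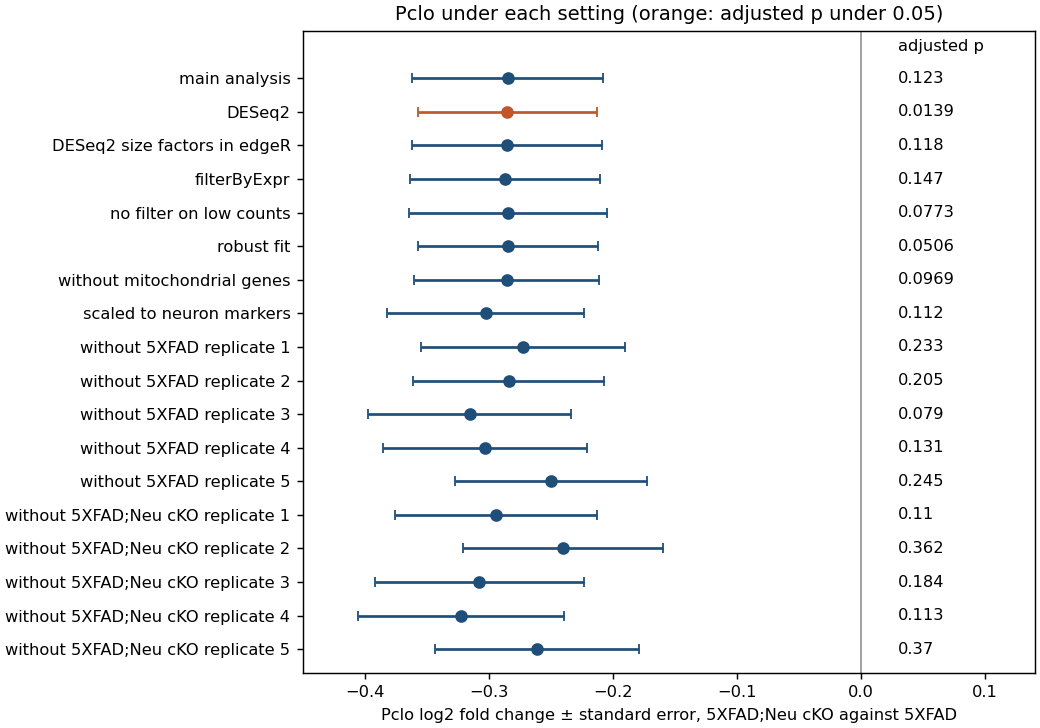
The horizontal axis gives the Pclo log2 fold change of 5XFAD;Neu cKO against 5XFAD with its standard error, and the adjusted p stands at the right. There is 1 line for each library left out and for each other setting except the fit with the replicate number as a block. That fit (edgeR's adjusted p = 0.0306) is not drawn, since same-numbered libraries of the groups did not deviate together. Every estimate drawn lies between -0.32 and -0.24, and the adjusted p is 0.0139 with DESeq2 and at least 0.0506 in the other settings drawn.

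Bsn was at 145, 126, 123, 134 and 122 CPM in 5XFAD;Neu cKO replicates 1 to 5 and at 137, 156, 131, 132 and 151 CPM in 5XFAD replicates 1 to 5. Of the former, 3 were below every 5XFAD library, and the highest, replicate 1, was above 3 of them. The means of 130.1 ± 9.83 and 141.4 ± 11.4 CPM (SD, n = 5) gave a log2 fold change of -0.12 with a 95% interval from -0.31 to 0.067 (adjusted p = 0.861). To compare the pair free of any scaling between libraries, the log2 ratio of Pclo to Bsn counts was taken within each library. It was 1.86 ± 0.138 in 5XFAD;Neu cKO and 2.02 ± 0.0858 in 5XFAD (SD, n = 5), a difference of -0.17 that missed the threshold (exact two-sided permutation test, p = 0.0556, 0.222 adjusted over the 4 ratios tested). A difference between Pclo and Bsn in their response was thus not shown.

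Rims1 and Rims2 encode RIM1 and RIM2, which bind Rab3 on vesicles and MUNC13, and bring calcium channels to the release site. Rims1 (chromosome 1 of GRCm39, 22356133 to 22845686) was at 492, 448, 355, 439 and 406 CPM in 5XFAD;Neu cKO replicates 1 to 5 and at 540, 544, 431, 505 and 423 CPM in 5XFAD replicates 1 to 5. The groups overlapped, since replicates 3 and 5 of 5XFAD were among the lower values. The means were 428.0 ± 50.8 and 488.8 ± 58.3 CPM (SD, n = 5). The log2 fold change was -0.19 (standard error 0.084), with a 95% interval from -0.36 to -0.024. It had an unadjusted p of 0.0258 in edgeR, which became 0.531 after adjustment, and an exact permutation p of 0.119.

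Rims2 (chromosome 15, 39060328 to 39549500) varied less, from 200 to 233 CPM in 5XFAD;Neu cKO with a median of 210.1 and from 216 to 251.6 CPM in 5XFAD with a median of 222. Of the 5 libraries of 5XFAD;Neu cKO, 4 were below every 5XFAD library, and replicate 4 was above 3 of them. The log2 fold change was -0.11 (standard error 0.084, adjusted p = 0.838). Of the reads on the 4 RIM genes, Rims1 took 54.2% ± 3.64 in 5XFAD;Neu cKO and 56.0% ± 2.58 in 5XFAD, and Rims2 27.1% ± 2.00 and 26.6% ± 3.00 (SD, n = 5). The shorter relatives Rims3 and Rims4 took the rest. The log2 ratio of Rims1 to Rims2 was 1.00 ± 0.181 against 1.08 ± 0.222 (SD, n = 5, exact permutation p = 0.579, adjusted 0.992).

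Erc1 and Erc2 encode the ELKS proteins, coiled-coil scaffolds that bind RIM, Bassoon and liprin-α. Erc1 (chromosome 6, 119547756 to 119825459) ranged from 77.1 to 103 CPM in 5XFAD;Neu cKO and from 88.4 to 112 CPM in 5XFAD. Erc2 (chromosome 14, 27344274 to 28200509), which has the longest gene of the 10 at 856236 bases, ranged from 232 to 274 CPM and from 240 to 301 CPM. Both overlapped over most of their range. Their log2 fold changes were -0.058 (95% interval -0.27 to 0.15, adjusted p = 0.966) and -0.043 (-0.21 to 0.12, adjusted p = 0.966), and each turned to the other sign with 1 library left out, at 0.011 for Erc1 without 5XFAD;Neu cKO replicate 3 and 0.0040 for Erc2 without 5XFAD replicate 5. Erc2 took 73.1% ± 1.27 of ELKS reads in 5XFAD;Neu cKO and 72.9% ± 2.06 in 5XFAD (SD, n = 5).

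Unc13a encodes MUNC13-1, the main priming factor of excitatory synapses in the forebrain. It was at 66.4, 73.2, 80.2, 103 and 80.3 CPM in 5XFAD;Neu cKO replicates 1 to 5 and at 83.9, 65.0, 78.5, 68.0 and 69.6 CPM in 5XFAD replicates 1 to 5. Replicate 4 of 5XFAD;Neu cKO stood above the rest, and the other values of the groups lay among each other. The log2 fold change was 0.14 (95% interval -0.092 to 0.37, adjusted p = 0.871), and without that library it was 0.039. Unc13a lies on the minus strand of chromosome 8 from 72076694 to 72124685, and its exons share 2758 bases with Colgalt1 of the other strand, which was counted 134 to 269 times a library. The strand setting of the counting is not given in the sources used here, so its values are uncertain. Of the MUNC13 reads, Unc13a took 35.2% ± 5.93 in 5XFAD;Neu cKO and 29.9% ± 4.67 in 5XFAD, and Unc13c, a relative best known from cerebellum, took 51.2% ± 7.30 and 58.9% ± 6.04 (SD, n = 5).

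Ppfia2 and Ppfia3 encode liprin-α2 and liprin-α3, which bind RIM, ELKS and CASK and act early in assembly. Ppfia2 (chromosome 10, 106305173 to 106771813) ranged from 134 to 157 CPM in 5XFAD;Neu cKO with a median of 147, and from 141 to 169 CPM in 5XFAD with a median of 146. Ppfia3 (chromosome 7, 44988545 to 45016901) was at 84.0 ± 4.34 CPM, from 79.1 to 88.5, and at 89.1 ± 11.4 CPM, from 80.7 to 108 (SD, n = 5). The groups overlapped in both genes, and the 108 CPM of Ppfia3 in 5XFAD replicate 2 was well above its other libraries. Their log2 fold changes were -0.081 (95% interval -0.26 to 0.10, adjusted p = 0.924) and -0.083 (-0.30 to 0.13, adjusted p = 0.940), and that of Ppfia3 came to -0.0054 without 5XFAD replicate 2. The end of Ppfia2 shares 2439 exonic bases with Acss3 of the other strand, which was counted 0 to 16 times. Ppfia2 and Ppfia3 together with Ppfia1 and Ppfia4 make up the liprin-α family, of whose reads Ppfia2 took 49.8% ± 1.33 in 5XFAD;Neu cKO and 48.7% ± 3.69 in 5XFAD (SD, n = 5).

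Tspoap1 encodes RIM-BP1, which binds both RIM and calcium channels. This gene (chromosome 11, 87651330 to 87676754) was at 96.3, 120, 103, 99.4 and 115 CPM in 5XFAD;Neu cKO replicates 1 to 5 and at 97.3, 85.2, 89.9, 101 and 106 CPM in 5XFAD replicates 1 to 5. The 2 highest values were in 5XFAD;Neu cKO and the 2 lowest in 5XFAD, and the others overlapped. The log2 fold change of 0.16 (standard error 0.10, 95% interval -0.047 to 0.36, adjusted p = 0.790) was the highest of the 10. For its relative Rimbp2 the estimate was -0.045 on the log2 scale (adjusted p = 0.979).

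**Figure D3:**
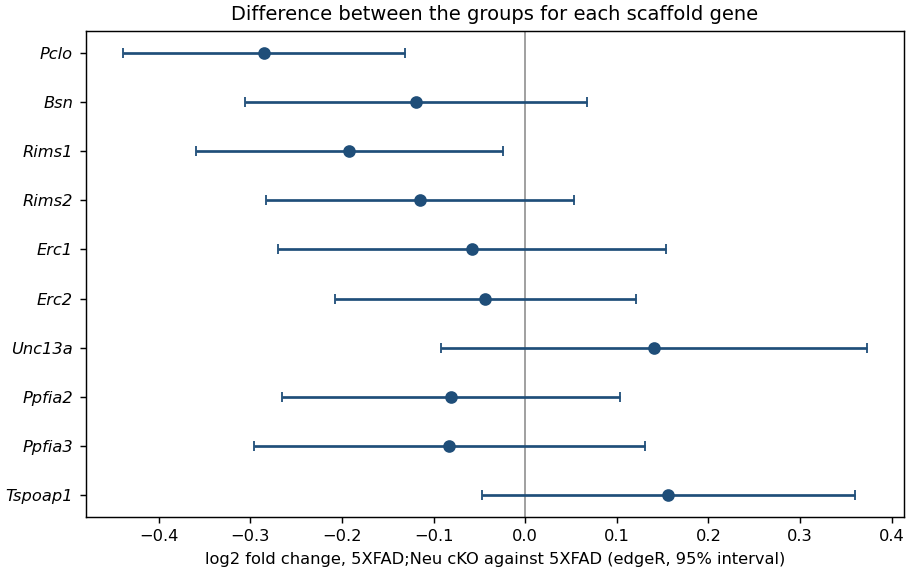
The horizontal axis gives the log2 fold change of 5XFAD;Neu cKO against 5XFAD from edgeR for each of the 10 genes, with a point for the estimate and a bar for its unadjusted 95% interval. The bars of Pclo and Rims1 lie below 0, and the other 8 cross it.

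Summed over the 10 genes, the level was 1917 to 2116 CPM in 5XFAD;Neu cKO with a median of 1968, and 2066 to 2299 CPM in 5XFAD with a median of 2267. The sums overlapped. Without Pclo the ranges were 1415 to 1609 CPM and 1540 to 1721 CPM. Without both Pclo and Rims1 they were 1060 to 1156 CPM and 1096 to 1213 CPM.

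The genes covered a wide range of levels within the cortex. Averaged over the 10 libraries, Pclo stood at 523.5 CPM, Rims1 at 458, Erc2 at 262, Rims2 at 221, Ppfia2 at 149, Bsn at 136, Tspoap1 at 101, Erc1 at 97.2, Ppfia3 at 86.6 and Unc13a at 76.8 CPM. Pclo was above 99.4% of all genes tested and Unc13a above 89.7%. Each gene was compared with the next in this order within libraries, by an exact sign-flipping permutation test over the 10 libraries with adjustment over the 9 pairs. Erc2, Rims2, Ppfia2 and Tspoap1 were each below the gene before them in all 10 libraries (exact permutation test, p = 0.00195, the smallest it allows, adjusted 0.0044). Pclo was above Rims1 in 8 libraries (exact adjusted p = 0.0293), all except replicates 1 and 2 of 5XFAD;Neu cKO. Erc1 was above Ppfia3 in 8 (exact adjusted p = 0.0402) and Ppfia3 above Unc13a in 9 (exact adjusted p = 0.0293). Ppfia2 and Bsn (exact adjusted p = 0.0527) and Tspoap1 and Erc1 (exact adjusted p = 0.432) did not differ beyond their spread. The priming of 3′ libraries can differ between genes, which was not tested, so the order is one of reads rather than of measured molecules.

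**Figure D4:**
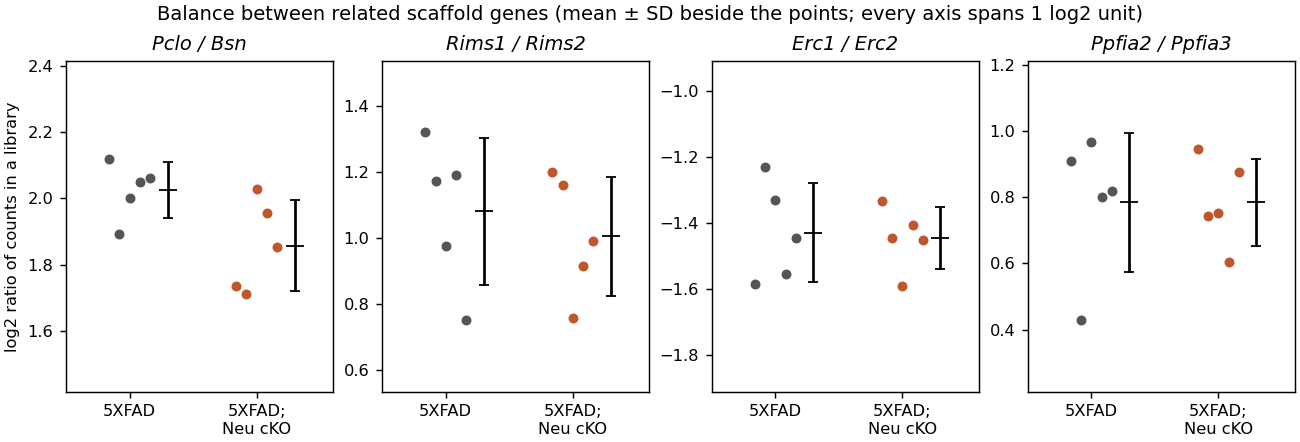
Each panel plots the log2 ratio of the counts of 2 related scaffold genes within each library of 5XFAD and 5XFAD;Neu cKO, with mean ± SD beside the points, and every vertical axis spans the same length. The Pclo to Bsn ratio has means of 1.86 in 5XFAD;Neu cKO and 2.02 in 5XFAD, and the other 3 ratios have means that differ by at most 0.077 in size.

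The log2 ratios of Erc1 to Erc2 were -1.45 ± 0.0937 in 5XFAD;Neu cKO and -1.43 ± 0.150 in 5XFAD, and those of Ppfia2 to Ppfia3 were 0.78 ± 0.132 and 0.79 ± 0.210 (SD, n = 5, exact permutation p = 0.794 and 0.992, both 0.992 adjusted). The spread between libraries of 1 group was small for all 10 genes, with a coefficient of variation from 5.17% for Ppfia3 to 16.9% for Unc13a, both in 5XFAD;Neu cKO. The genes did not vary as 1 block. After the group means were taken off, Pearson's r between 2 of the genes over the 10 libraries had a median of 0.038 over the 45 pairs, from -0.58 for Ppfia3 with Tspoap1 to 0.75 for Bsn with Erc1, and 24 pairs were above 0. Pclo was most like Rims2 (r = 0.74, Spearman's rho = 0.67). Counts of 1 library share its depth and composition, and these values are descriptions with no test.

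Of 8831 other genes with a mean of at least 10 CPM, the 5 whose log2 CPM, with the group means taken off, varied most like the mean of the standardised scaffold genes over the 10 libraries were Tesc (r = 0.94), A630089N07Rik (0.92), Ap3m2 (0.90), Srgap3 (0.90) and Atf7 (0.90). Closest to Pclo alone were Prpf38a (r = 0.95), Cog7 (0.92) and Tmem161b (0.90). With so many genes and 10 libraries, high values are found in any search, and nothing is read from them.

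The other genes of the release site were counted by lists. Of 18 relatives and partners of the scaffolds, 10 were higher and 8 lower in 5XFAD;Neu cKO, 0 passed in edgeR and 2 had an unadjusted p under 0.05, which 7.95% of all genes tested had in either direction. The 2 genes were Ctbp1, whose product binds Piccolo and Bassoon, at 121 ± 14.3 against 94.4 ± 10.4 CPM (SD, n = 5, log2 fold change 0.36, edgeR's adjusted p = 0.171), and Unc13c at 118 ± 24.9 against 146 ± 26.4 CPM (-0.30, adjusted p = 0.436). Of 13 genes of Rab3 proteins, their effectors and presynaptic calcium channels, 6 were higher and 7 lower, 0 passed and 2 had an unadjusted p under 0.05. The nearest were the calcium channel subunits Cacnb4 (log2 fold change 0.16) and Cacnb2 (-0.32), with adjusted p-values of 0.613 and 0.623. Of 13 genes of the fusion machinery, 6 were higher and 7 lower, and 3 had an unadjusted p under 0.05. Of the 13, 1 passed, where 0.218% of all genes did. It was Syt2, a fast calcium sensor that was at 37.5 ± 8.23 against 57.2 ± 10.1 CPM (SD, n = 5, log2 fold change -0.61, edgeR's adjusted p = 0.0388). Syt2 passed in 5 of the 10 fits with 1 library left out, and without 5XFAD replicate 2 its adjusted p was 0.246.

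Across the cleft, 3 of 12 adhesion genes were higher and 9 lower and 0 passed or had an unadjusted p under 0.05, Lrrtm3 (log2 fold change -0.26, adjusted p = 0.635) and Ptprf (-0.13, adjusted p = 0.845) being the nearest. Of 16 postsynaptic scaffolds, 9 were higher and 7 lower, 0 passed in edgeR, and 2 had an unadjusted p under 0.05, where 7.95% of all genes did. Shank3, a scaffold beneath glutamate receptors, was at 50.4 ± 7.99 CPM in 5XFAD;Neu cKO and 35.0 ± 11.1 CPM in 5XFAD (SD, n = 5, log2 fold change 0.52, edgeR's adjusted p = 0.248), and Dlgap1 at 838 ± 56.5 and 735.5 ± 54.7 CPM (0.19, adjusted p = 0.445). The median log2 fold change was 0.027 over the postsynaptic scaffolds, -0.049 over the adhesion genes and -0.082 over the 10 active zone scaffolds. No test compared these lists.

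Levels of cell type markers were compared between the groups, and in bulk tissue they do not separate fewer cells from less RNA per cell. The summed level of 12 general neuron markers was 4382 to 4675 CPM in 5XFAD;Neu cKO and 4176 to 4808 CPM in 5XFAD, and 0 of the 12 passed in edgeR, while 2, Celf4 (log2 fold change 0.23) and Nefm (-0.20), had an unadjusted p under 0.05. Markers of excitatory neurons (11 tested, median -0.064) and of inhibitory neurons (10 tested, median -0.061) had 0 genes past the threshold. In them 2 and 3 genes had an unadjusted p under 0.05, against 7.95% of all genes, with the smallest for Neurod2 (log2 fold change 0.32), Slc17a6 (-0.39), Lhx6 (1.04) and Vip (-0.42). Microglia markers moved with the groups. All 11 tested had lower estimates in 5XFAD;Neu cKO, and 9 had an unadjusted p under 0.05. The 6 that passed had log2 fold changes from -1.21 (C1qb) to -0.51 (Cx3cr1), with Tyrobp, Ctss, C1qc and Csf1r between them. Ctss, C1qb and Tyrobp passed with any 1 library left out, Csf1r in 9, C1qc in 8 and Cx3cr1 in 6 of the 10 fits, with adjusted p-values of 0.0808 (Csf1r) and 0.231 (Cx3cr1) without 5XFAD replicate 2 and 0.0984 (C1qc) without 5XFAD;Neu cKO replicate 5. The microglia sum was 319 to 403 CPM against 464 to 684 CPM with no overlap. Of 10 astrocyte markers, 9 had lower estimates, 4 had an unadjusted p under 0.05 and 1, Gfap, passed (log2 fold change -0.88, edgeR's adjusted p = 0.00202). Of 10 oligodendrocyte markers, 9 had lower estimates and 0 passed in edgeR, while 5 had an unadjusted p under 0.05, with Mobp (-0.43) and Mbp (-0.28) the nearest. Of 8 endothelial markers, 3 had lower estimates, and 0 passed in edgeR or had an unadjusted p under 0.05, Slco1a4 (-0.13) and Pecam1 (0.075) being the nearest. The sums of the astrocyte, oligodendrocyte and endothelial lists overlapped between the groups. No marker of these lists was at 0 in any library. The part of these glial differences in the value of Pclo was not tested.

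**Figure D5:**
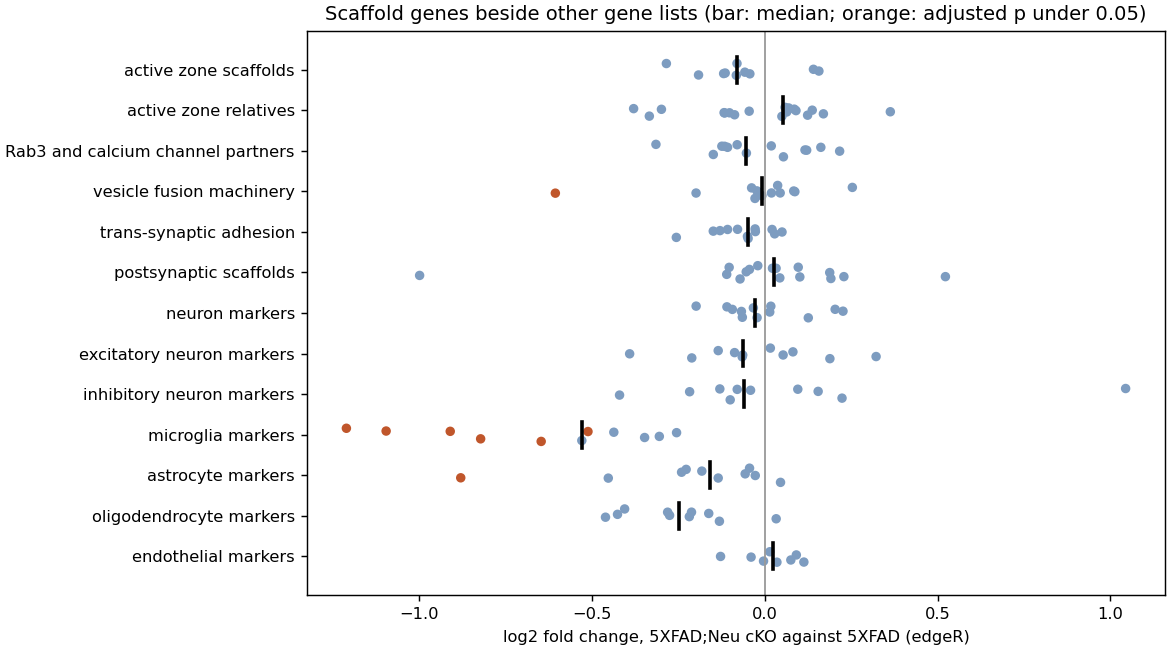
The horizontal axis gives the log2 fold change of 5XFAD;Neu cKO against 5XFAD, with 1 point for each gene tested of the named list, a bar at the median of the list, and orange for an adjusted p under 0.05. The active zone scaffolds have a median of -0.082 and no orange point, and the microglia markers have a median of -0.53 with 6.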

How the data were processed

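The authors made QuantSeq 3′ FWD libraries from cortical RNA, removed adapter and poly(A) sequence by bbduk, mapped reads on GRCm39 with STAR 2.7.3a (the version in the submitters' processing notes) and Ensembl annotation, and deposited htseq-count counts per gene, unnormalised. The notes and the paper differ in the HTSeq version, with 0.9.1 in the notes. Symbols and places came from GENCODE vM39 on the same build, which named 52610 of the 53700 identifiers. Summary rows were dropped (31.3% to 39.9% of kept reads were on no gene). Replicates of a group differed by more than sampling noise.

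Genes with a total count over 10 were fitted with edgeR 4.0.16 in R 4.3.3 (glmQLFit, glmQLFTest, TMM, group as the only term) and Benjamini-Hochberg adjustment over 19268 genes at 0.05, after tests on simulated counts. Intervals use the fit's standard error and are not adjusted. Permutation tests of single genes used log2 CPM (prior count 2) over 252 relabellings. Those of the ratios between related genes used log2 ratios of the counts, over the same relabellings when all libraries were kept. Tests of the order of levels flipped the signs of log2 CPM differences over the 10 libraries. The alternatives were DESeq2 1.42.0, its size factors, filterByExpr, no filter, a robust fit, no mitochondrial genes, scaling to neuron markers, a replicate block and each library left out.

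The genes and 12 further lists, which were active zone relatives, Rab3 and calcium channel partners, fusion machinery, adhesion, postsynaptic scaffolds and 7 sets of cell markers, were chosen with earlier results of these data known. Named from each list are genes past the threshold, or else the 2 with the smallest unadjusted p, with family relatives added after their values were seen, and the genes most like the members by correlation. Promoters came from RefSeq (GRCm38.p6).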

Additional observations from a re-analysis of the deposited data

How the results depend on the processing

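The edgeR count of 42 genes past the threshold became 73 with DESeq2, 103 with no filter on low counts and 112 with the replicate number as a block, and 26 (without 5XFAD replicate 2) to 72 (without 5XFAD;Neu cKO replicate 1) with each library left out in turn. It was 27 without 5XFAD;Neu cKO replicate 4 and 27 without 5XFAD;Neu cKO replicate 5. The cause was not tested. Of the 10 scaffold genes, 0 passed in edgeR, 1 with DESeq2 and 1 with the replicate block, Pclo in both, and 0 in each fit that left out a library. Their median log2 fold change lay between -0.092 and -0.078 over the 8 alternatives with all libraries and between -0.11 and -0.066 with a library left out.

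Pclo had an adjusted p of 0.0139 with DESeq2, 0.0306 with the replicate block, and 0.0506 to 0.147 in the other 6 such alternatives. Its permutation test gave p = 0.0556 (exact) with library totals in place of TMM, a difference of -0.20, and 0.00794 (exact) with DESeq2's size factors or neuron marker totals, 3 scalings added after seeing the data. Same-numbered libraries of the groups did not deviate together (correlations of -0.078 to 0.054 over 8841 genes, and 1 of the 5 5XFAD;Neu cKO libraries was most like its own number), so the numbers were not treated as pairs. The block changed no other call on a scaffold gene.

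With a library left out, the log2 fold change ran from -0.097 to 0.011 for Erc1 and from -0.080 to 0.0040 for Erc2, crossing 0 in 1 of 10 fits each, and the other 8 genes kept their sign in all settings. The difference in the log2 ratio ran from -0.056 to 0.033 for Erc1 to Erc2, crossing 0 in 3 of 10, and from -0.090 to 0.045 for Ppfia2 to Ppfia3, crossing in 7 of 10. The ratios gave the same calls with 0.5 added to both counts and with the block, the latter with an adjusted p of 0.50 for Pclo to Bsn.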
